A study of Mus musculus with 21 samples.

Results

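The comparison described here is that of sorted olfactory sensory neurons (OSNs) carrying HyperTRIBE alone with the mCherry-negative cells of the same mice. It was chosen by the column names of the deposited table, and covers 6 of the 21 libraries of the series, 3 of OSNs and 3 of negative cells. All 6 came from the main olfactory epithelium of mice with 3 transgenes in common, gg8tTA, OMPtTA and tetO-HyperTRIBE_mCherry, so the negative cells carry the same alleles as the neurons. The labels name the sorted fraction immature and mature OSN, and call the mCherry-negative fraction of each number the internal control of that mouse. They give no age, sex or strain. Cells were freed with papain and sorted, and total RNA was made into stranded low-input libraries. All libraries used here carry the same date tag in their library names. The remaining libraries came from mice in which Mex3a, an RNA-binding protein, was joined to HyperTRIBE, and 11 of them (6 of OSNs, 5 of negative cells, both drivers) are used below to ask whether a difference between fractions also held under the other construct.

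HyperTRIBE is an editing domain of the ADAR enzymes, which turn adenosine into inosine in RNA. Joined to an RNA-binding protein it marks the RNAs bound, and alone it serves as the control for editing without a partner. The construct was switched on by tTA, a transcription factor that acts on the tetO promoter. The gg8 driver is active in immature OSNs and the OMP driver in mature OSNs, so the sort depends on when a cell began to make mCherry and on how much it made. The olfactory epithelium renews its neurons throughout life from basal stem cells through dividing progenitors. It also holds sustentacular support cells, microvillous cells, Bowman's glands below the surface, ensheathing glia around the axons and tissue macrophages. The nasal cavity is walled by bone, whose marrow makes granulocytes.

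Values are TPM, a length-scaled share of each library's RNA, and differences are on the log2(TPM + 1) scale, OSN minus negative, which understates the change of genes with low levels. Whole read counts recovered from the TPM values gave a depth of 8773023 to 11312654 per OSN library and 8756099 to 11067342 per negative library. Between 15843 and 18006 genes reached 1 TPM in the OSN libraries, against 16410 to 16789 in the negative ones. Across genes, the negative library of mouse 2 was the closest to the OSN libraries (r = 0.894 to 0.924) and that of mouse 3 the farthest (r = 0.814 to 0.843). In mouse 2, both fractions held the X-inactivation transcript Xist (60.3 TPM in OSNs, 76.5 in negative cells) together with Y-linked transcripts, whereas the other 4 libraries had Xist at 0.0934 to 0.14 TPM. Whether the material labelled mouse 2 came from more than 1 animal is not given in the sources used here.

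With limma, 1923 of 17027 genes tested (11.3%) differed between the fractions at a Benjamini-Hochberg adjusted p under 0.05. Of these, 371 (2.18% of genes tested) were higher in OSNs and 1552 (9.11%) lower, and the median difference over all genes was 0.095. When the mouse was added to the model, 4967 genes passed (29.2%), 2255 higher (13.2%) and 2712 lower (15.9%), and all 1923 were among them. The 3 OSN libraries did not overlap the 3 negative libraries for 6976 genes (41.0%), 3903 of them higher in OSNs. The balance of the calls moved with the scaling: quantile normalization gave 543 higher and 1232 lower, and limma's voom on recovered counts 102 higher and 936 lower. The number of calls rested on single negative libraries, with 4183 genes without the negative library of mouse 2 and 660 without that of mouse 1. It was 797 without the OSN library of mouse 1, 811 without that of mouse 2 and 1183 without the negative library of mouse 3. In bulk samples, fewer cells of a type and less RNA per cell cannot be told apart.

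The construct was read first. Adar, the gene of the editing enzyme ADAR1, measured 1033, 1049 and 1155 TPM in the OSN libraries and 56.6, 51.0 and 57.2 TPM in the negative libraries of the same mice. The values of the 3 OSN libraries lay within a narrow band far above all negative values. The log2 difference was 4.27 (SE 0.104), or 19.3-fold on that scale, with a limma adjusted p of 3.52e-05. An exact permutation test of Adar alone gave p = 0.1, two-sided, the smallest that 3 against 3 allows (0.2 adjusted over 2 such tests). Whether these reads came from the construct or from the mouse gene was not tested. Adarb1, the related enzyme ADAR2, stood at 26.6 ± 1.92 TPM in OSNs and 26.1 ± 0.528 in negative cells (SD, n = 3), with a limma adjusted p of 0.913. Adat3, a subunit of the tRNA adenosine deaminase, rose from 9.43 ± 0.311 to 15.7 ± 1.10 TPM (SD, n = 3; limma adjusted p = 0.0429), and no other of the 20 genes tested from the list of editing enzymes and double-stranded RNA binding proteins passed.

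Mex3a, which is not part of this construct, measured 24.0, 32.1 and 61.5 TPM in OSNs against 29.3, 58.4 and 74.3 TPM in the negative cells. It was lower in the neurons of each mouse, but the groups overlapped, and neither limma (log2 difference -0.465, SE 0.436, adjusted p = 0.472) nor the exact permutation test (p = 0.5) separated them. With the mouse in the model the limma adjusted p was 0.0677.

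**Figure D1:**
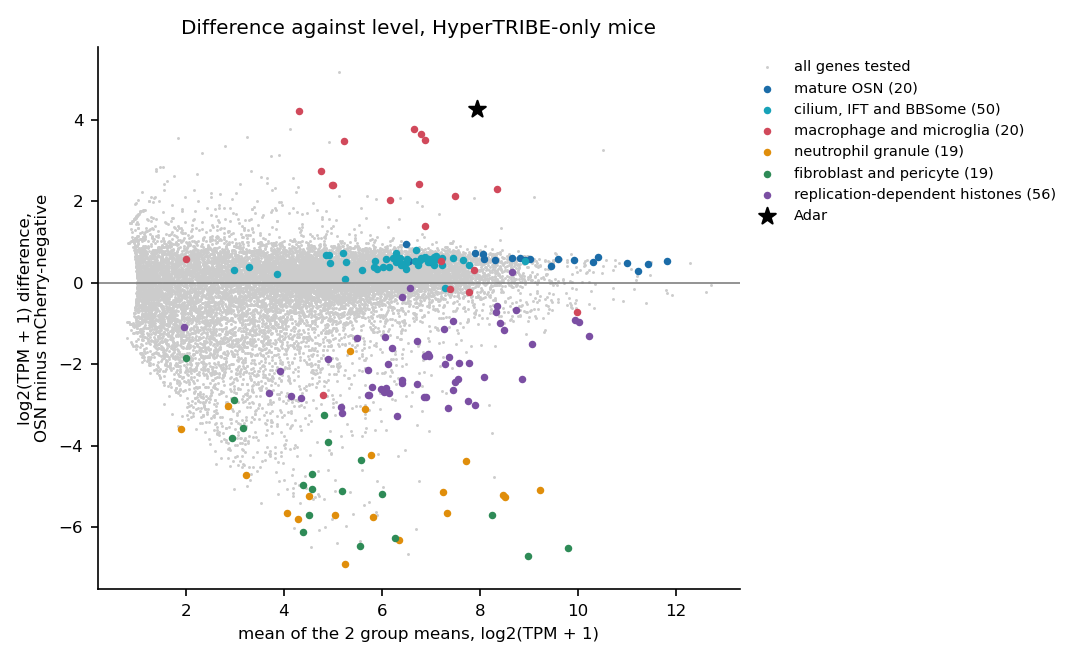
Each point is 1 of the 17027 genes tested, with the mean of both group means on the x axis and the OSN minus mCherry-negative difference on the y axis, both on the log2(TPM + 1) scale. Adar lies at 4.27, the macrophage genes C1qa, C1qb, C1qc, Trem2 and Cx3cr1 above 3, and the neutrophil granule and fibroblast genes reach below -6.

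Mature neuron transcripts were abundant in both fractions. Omp, the olfactory marker protein, measured 2593, 2704 and 1785 TPM in OSNs and 1986, 2159 and 1093 TPM in the negative cells. The negative value was the lower one in every mouse, but the negative libraries of mice 1 and 2 exceeded the OSN library of mouse 3. The difference was 0.472 (SE 0.326, limma adjusted p = 0.331, and 0.0522 with the mouse in the model). The 20 mature OSN genes together made up 25130, 24780 and 17220 TPM in OSNs and 18400, 20460 and 10100 TPM in negative cells. The summed level in negative cells was thus 73.2%, 82.6% and 58.65% of that in the OSNs of the same mouse, so the cells sorted as mCherry-negative were not free of mature OSN transcripts.

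All 20 mature OSN genes lay above 0, with a median difference of 0.556, yet none passed the test without the mouse term. With it, 14 rose. Adcy3, the adenylyl cyclase of the odor cascade, went from 647 ± 242 to 924 ± 206 TPM (SD, n = 3), a log2 difference of 0.570 with a limma adjusted p of 0.264, and 0.0379 with the mouse term. Rtp1, a chaperone that brings odorant receptors to the membrane, stood at 402 ± 132 and 574 ± 108 TPM (SD, n = 3; limma adjusted p = 0.209, and 0.0305 with the mouse term). The spread between mice was large beside the difference within each mouse, and the lowest values in both fractions were those of mouse 3. Without the negative library of mouse 2, 3 of the 20 genes passed, and without that of mouse 3 their median was 0.254.

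Of the odor transduction list, from the G protein to the chloride channel, none of 22 genes passed without the mouse term and 9 rose with it, with a median of 0.466. Gnal, the olfactory G protein subunit, was at 1753, 1660 and 1041 TPM in OSNs and 1232, 1399 and 625.3 TPM in negative cells (limma adjusted p = 0.352, and 0.0431 with the mouse term). Cnga2, the subunit of the channel opened by cyclic AMP, was at 785 ± 236 against 613 ± 251 TPM (SD, n = 3; limma adjusted p = 0.484, and 0.0582 with the mouse term). The receptor trafficking list shares Rtp1, Rtp2 and Gfy with the mature OSN list. None of its 13 genes passed without the mouse term, and with it 3 rose and 1 fell.

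Of the 20 immature OSN genes, only Crmp1, a cytoskeletal protein of growing axons, rose without the mouse term. It measured 133, 132 and 146 TPM in OSNs and 76.8, 107 and 77.1 TPM in negative cells, with no overlap (log2 difference 0.667, SE 0.151, limma adjusted p = 0.0373). With the mouse term 8 of the 20 rose and 2 fell. Gap43, the growth cone protein that defines immature OSNs, was at 358, 315 and 254 TPM against 199, 272 and 187 TPM (limma adjusted p = 0.124, and 0.047 with the mouse term). Without the negative library of mouse 2, 5 of the 20 were called higher, and without any other single library, or with voom, none was.

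Genes of the synapse and of the cilium, at opposite ends of the neuron, had higher medians than all genes tested. The synaptic vesicle release list had all 27 genes above 0 and a median of 0.681. Only Stx1a, a membrane partner in vesicle fusion, rose without the mouse term, at 171, 156 and 212 TPM in OSNs and 99.2, 126 and 99.2 TPM in negative cells (log2 difference 0.722, limma adjusted p = 0.0346). With the mouse term 23 of the 27 rose, among them Snap25 (limma adjusted p = 0.0185) and the calcium sensor Syt1 (0.0158). Without the negative library of mouse 2, 19 of the 27 were called, and without any other single library none was.

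Of 50 genes of the cilium, intraflagellar transport (IFT) and the BBSome, 49 lay above 0, with a median of 0.533. Without the mouse term 5 rose, namely Ift140, Kif3b, Dync2li1, Wdr34 and Mks1, and with it 42 did. Kif3b, a motor that carries cargo to the tip, measured 140.1, 138 and 126 TPM in OSNs and 87.7, 107 and 72.6 TPM in negative cells, with no overlap (log2 difference 0.609, SE 0.153, limma adjusted p = 0.0496). Median-of-ratios scaling and quantile normalization each called 2 of the 50, and voom on recovered counts called none. Without the negative library of mouse 2, 28 of the 50 were called, and without any other library none was.

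Dnah5 and Hydin, which act in beating cilia, rose within the list of multiciliated respiratory cells. Dnah5, a motor of beating cilia, was at 18.1, 17.7 and 19.8 TPM in OSNs and 8.79, 10.9 and 7.86 TPM in negative cells (log2 difference 0.949, limma adjusted p = 0.0223). All 18 genes tested of that list lay above 0, and 12 passed with the mouse term. None was called when any 1 library other than the negative library of mouse 2 was left out, nor with all 4 groups in one fit, and 6 were without that library. Foxj1, the regulator of ciliated cells that OSNs also express, was at 152, 149 and 112 TPM against 92.8, 123 and 60.1 TPM (limma adjusted p = 0.15, and 0.0274 with the mouse term). Ncam2, an adhesion molecule of olfactory axons, rose from 147 ± 16.8 to 238 ± 14.2 TPM (SD, n = 3; limma adjusted p = 0.0141). It was the only one of 33 axon guidance and adhesion genes to rise without the mouse term, against 13 with it. None rose without the OSN library of mouse 1, that of mouse 2 or the negative library of mouse 1, and 8 rose without the negative library of mouse 2 and 2 without that of mouse 3. The repellent Slit2 fell (39.5 ± 17.9 to 7.69 ± 0.787 TPM, SD, n = 3; limma adjusted p = 0.0132), as did the ephrins Efnb1 and Efnb2. These 3 of 33 make a share near the 9.11% of all genes tested that were called lower. None of these 33 genes was called lower without the OSN library of mouse 2 or the negative library of mouse 1, and 1 without the OSN library of mouse 1.

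**Figure D2:**
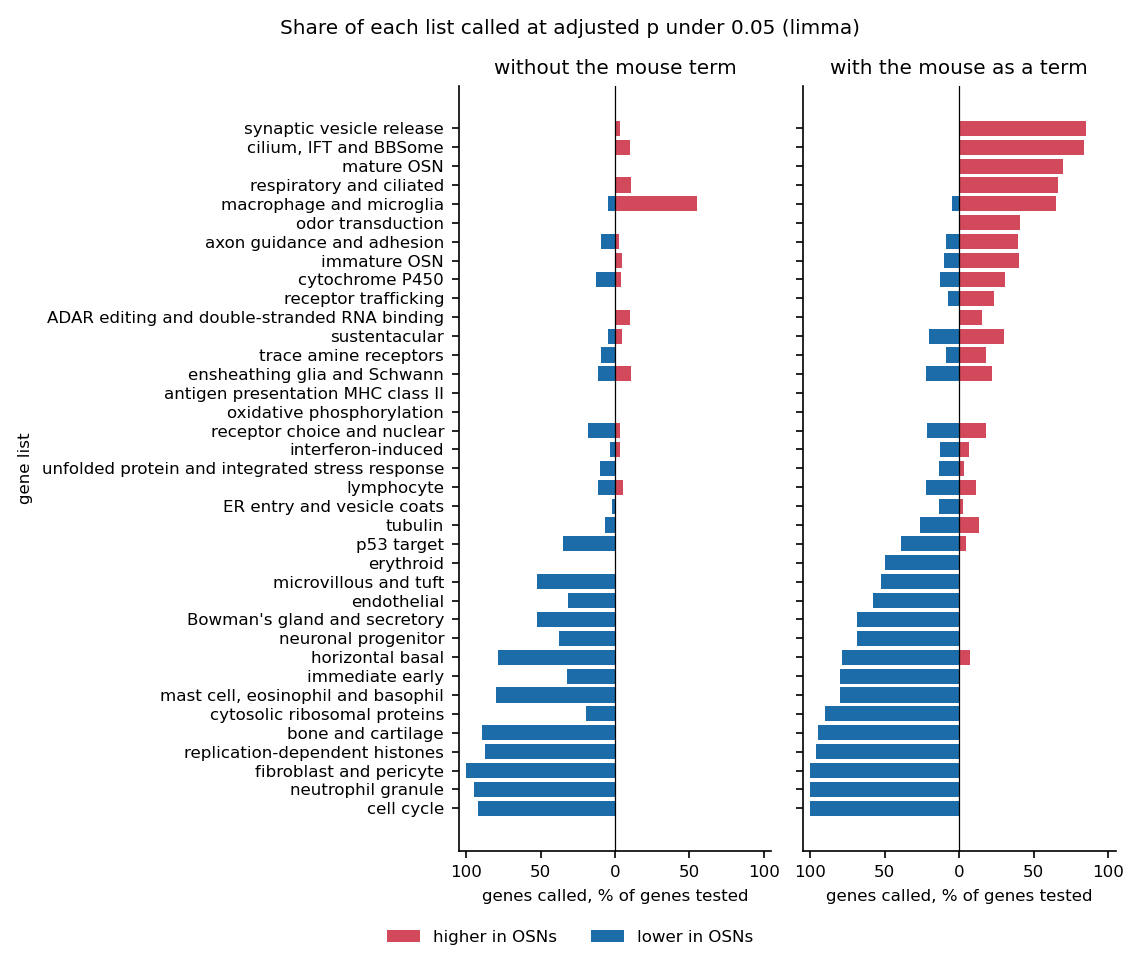
Bars give the share of each list's tested genes called higher (red, right) or lower (blue, left) in OSNs by limma, without the mouse as a term and with it. The synaptic list goes from 1 to 23 of 27 genes and the cilium list from 5 to 42 of 50, while the fibroblast list is at 19 of 19 in both.

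Odorant receptors did not follow the other neuronal genes. The 1098 receptor genes summed to 3091, 2996 and 799 TPM in OSNs and 3059, 3830 and 1048 TPM in negative cells. In each mouse more receptors reached 1 TPM in negative cells (724, 838 and 305) than in OSNs (537, 701 and 186), and mouse 3 was lowest in both fractions. Receptors above 0 TPM numbered 1036, 1041 and 937 in negative cells and 984, 1071 and 854 in OSNs, so at that cut mouse 2 went the other way. Over the 640 receptors tested the median difference was -0.27, against 0.095 over all genes. It became 0.078 with quantile normalization, 0.112 without the OSN library of mouse 3 and 0.023 without the negative library of mouse 2, so its direction was not fixed.

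Of the 640, 1 rose and 1 fell. Olfr1395 measured 43.2, 33.3 and 43.9 TPM in OSNs and 6.62, 9.25 and 7.56 TPM in negative cells. The values of all 3 OSN libraries lay above all negative values (log2 difference 2.22, SE 0.189, limma adjusted p = 0.00222). In the Mex3a-HyperTRIBE mice it was at 5.22 ± 2.37 TPM in OSNs (SD, n = 6), and the difference between the constructs passed (log2 -1.91, limma adjusted p = 0.0306). Olfr358 fell from 4.50, 5.49 and 1.46 TPM to 0.169, 0.286 and 0.216 TPM (limma adjusted p = 0.0376). With the mouse term 10 of the 640 receptors rose and 48 fell. Both shares were smaller than those over all genes tested (13.2% higher and 15.9% lower). The Taar genes, receptors for amines in a small dorsal set of OSNs, summed to 668, 141 and 8.97 TPM in OSNs and 79.7, 47.7 and 34.5 TPM in negative cells, with opposite signs in mice 1 and 3.

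Among regulators of receptor choice and nuclear structure, Emx2, a homeodomain factor of OSNs, rose from 177 ± 30.6 to 268 ± 18.3 TPM (SD, n = 3; limma adjusted p = 0.0418). Lhx2, another such factor, was at 363 ± 6.01 against 273 ± 54.2 TPM (SD, n = 3; limma adjusted p = 0.108), and Ldb1, its partner, at 203 ± 17.7 against 154 ± 11.7 TPM (SD, n = 3; 0.0661). Of the 28 genes, 1 rose and 5 fell, where 2.18% of all genes tested were called higher and 9.11% lower. With the mouse term 5 rose and 6 fell, where 13.2% and 15.9% of all genes tested did. The 5 decreases without the mouse term included genes of the nuclear envelope and heterochromatin. Lmnb1, lamin B1, measured 75.9, 80.3 and 79.0 TPM in OSNs and 261, 212 and 402 TPM in negative cells (log2 difference -1.83, SE 0.224, limma adjusted p = 0.00477). Lbr, the lamin B receptor that tethers heterochromatin and is known to be shut off in OSNs, stood at 29.1, 29.5 and 28.8 TPM against 80.4, 61.8 and 141 TPM (log2 difference -1.58, limma adjusted p = 0.0169). The OSN values of both genes were nearly equal across mice, and the spread lay in the negative libraries. Lmna, Cbx5 and H2afz were the other 3 to fall. Of the 5 decreases, 2 were called without the OSN library of mouse 1, that of mouse 2 or the negative library of mouse 1. Without the negative library of mouse 2, 7 genes of the list were called higher. None was called higher when any 1 of the other libraries was left out, with quantile normalization, with voom or with no filter on low values.

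Genes of dividing cells were lower in OSNs. Of 37 cell cycle genes, 34 fell and all lay below 0, with a median of -2.15. Mki67, the proliferation marker, measured 28.8, 41.8 and 36.7 TPM in OSNs and 165, 176 and 438 TPM in negative cells (log2 difference -2.69, SE 0.376, limma adjusted p = 0.00738). The negative library of mouse 3 was the highest. Among 56 replication-dependent histone genes 49 fell, with a median of -2.07, for example the linker histone Hist1h1b from 600 ± 211 to 76.5 ± 10.9 TPM (SD, n = 3; limma adjusted p = 0.00222). The number of cell cycle genes called was 8 without the OSN library of mouse 1, 10 without that of mouse 2 and 13 without the negative library of mouse 1, while 35 to 52 histone genes were called without any 1 library. With voom 8 cell cycle genes and 42 histone genes passed.

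Of 16 genes of neuronal progenitors 6 fell, namely Kit, Sox2, Hes6, Tead2, Ezh2 and Top2a, and 11 fell with the mouse term. Kit, a receptor of neuronal precursors, measured 3.04, 4.23 and 8.22 TPM in OSNs and 29.2, 29.9 and 54.0 TPM in negative cells (log2 difference -2.68, limma adjusted p = 0.00739). Neurog1 and Neurod1, factors of successive steps of neurogenesis, passed with the mouse term alone (limma adjusted p = 0.0406 and 0.0208). Neurog1 was at 3.71, 4.61 and 5.16 TPM in OSNs and 5.42, 11.4 and 13.2 TPM in negative cells, highest in mouse 3 in both fractions. Only 2 of the 16 passed without the OSN library of mouse 2 or without the negative library of mouse 1, and 3 without the OSN library of mouse 1.

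Horizontal basal cells are the quiet stem cells of the epithelium. Of 14 genes of these cells 11 fell, with a median of -2.06. Krt5, their keratin, measured 6.29, 5.85 and 5.39 TPM in OSNs and 74.1, 60.0 and 68.7 TPM in negative cells (log2 difference -3.32, SE 0.148, limma adjusted p = 0.000682). Both groups were tight, and the groups lay 10.0-fold apart. Krt14, its partner keratin, and Trp63, the stem cell regulator, differed by -3.40 and -2.69 on the log2 scale and passed (limma adjusted p = 0.00290 and 0.00222). With 1 library left out 6 to 11 of the 14 fell, and 1 rose without the negative library of mouse 2. The count was 7 without the OSN library of mouse 1 or of mouse 2 and 6 without the negative library of mouse 1.

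Of 19 microvillous and tuft cell genes tested, 10 fell, and they included Ascl3, Foxi1, Cftr and Coch, genes of ion-transporting microvillous cells. Ascl3 measured 1.59, 0.806 and 4.05 TPM in OSNs and 144, 81.4 and 89.4 TPM in negative cells (log2 difference -5.16, SE 0.409, limma adjusted p = 0.00222). Coch, which encodes the secreted protein cochlin, fell from 855 ± 415 to 98.5 ± 11.5 TPM (SD, n = 3; limma adjusted p = 0.00399). Trpm5, the channel of tuft-like chemosensory cells, was at 5.36 ± 2.50 against 20.2 ± 13.5 TPM (SD, n = 3; limma adjusted p = 0.0836), and did not pass. In this list 6 genes passed without the negative library of mouse 1 and with voom.

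Secretory genes of Bowman's glands and the nasal glands fell in 10 of 19 cases, with a median of -3.34. Bpifb4, a secreted lipid-binding protein, measured 3.46, 8.74 and 1.69 TPM in OSNs and 375, 448 and 365 TPM in negative cells (log2 difference -6.34, SE 0.431, limma adjusted p = 0.00217). Bpifb6 fell by 6.06 on the same scale, and Gpx6, a peroxidase of the olfactory glands, from 234.0 ± 91.3 to 3.29 ± 1.87 TPM (SD, n = 3; limma adjusted p = 0.00222). The odorant-binding protein gene Obp2a was at 38.2 ± 33.4 against 151 ± 49.2 TPM (SD, n = 3), with values of 46.5, 66.6 and 1.51 TPM in OSNs, and did not pass.

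Sustentacular genes did not move as a group. Of 20 genes, Fezf1 rose and Hes1 fell without the mouse term, and with it 6 rose and 4 fell. None rose when any 1 library other than the negative library of mouse 2 was left out, with median-of-ratios scaling, with voom or with no filter on low values, and none fell without the negative library of mouse 1. Cyp2g1, an odorant-metabolizing cytochrome P450 of these support cells, measured 282, 61.6 and 39.6 TPM in OSNs and 42.2, 28.9 and 6.96 TPM in negative cells. Each OSN library exceeded the negative library of its own mouse, but the OSN library of mouse 3 lay below the negative library of mouse 1 (log2 difference 2.04, SE 0.869, limma adjusted p = 0.149, and 0.0123 with the mouse term). Muc2 followed the same order, with 28.9, 5.83 and 7.13 TPM against 3.18, 1.91 and 0.479 TPM (limma adjusted p = 0.0749, and 0.0149 with the mouse term). Sustentacular transcripts in the OSN libraries summed to 3271, 1563 and 1326 TPM, highest in mouse 1. Among 23 cytochrome P450 genes, Cyp2s1 rose (43.7 ± 0.575 against 25.5 ± 3.77 TPM, SD, n = 3; limma adjusted p = 0.0181) and 3 fell. Over all genes tested 2.18% were called higher and 9.11% lower, so such small counts do not set the P450 or sustentacular lists apart. None of the 23 rose without any 1 OSN library, without the negative library of mouse 1 or with all 4 groups in one fit.

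Of the 12 genes with the largest decrease, 8 belong to bone and connective tissue, 2 to neutrophil granules and 2 to the secreted Bpifb family. All 19 fibroblast and pericyte genes tested fell, with a median of -5.07, and so did 17 of 19 bone and cartilage genes, with a median of -4.67. Col1a1, the main collagen of bone and connective tissue, measured 189, 54.6 and 51.3 TPM in OSNs and 8097, 4794 and 10850 TPM in negative cells, where it was the most abundant transcript in the libraries of mice 1 and 3. No OSN value came near a negative one (log2 difference -6.51, SE 0.548, or 91.3-fold, limma adjusted p = 0.00222). Ibsp, bone sialoprotein, stood at 13.7, 5.38 and 4.76 TPM against 1074, 355 and 1445 TPM (limma adjusted p = 0.00222). Bglap2, an osteocalcin gene, fell by 6.48 on the log2 scale, although its near-identical neighbour Bglap makes the split of reads between them uncertain. Fibroblast genes summed to 18520, 9954 and 25650 TPM in the negative libraries and 418, 170.4 and 186 TPM in the OSN libraries. Without any 1 library 17 to 19 fibroblast genes and 13 to 19 bone genes passed, and voom called 15 and 7.

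Of 19 neutrophil granule genes 18 fell, with a median of -5.20. Elane, neutrophil elastase, measured 2.45, 2.78 and 1.56 TPM in OSNs and 458, 184 and 683 TPM in negative cells. Its log2 difference of -6.91 (SE 0.460, limma adjusted p = 0.00217) was the largest decrease among the genes named by rule. Mpo, myeloperoxidase, fell by 6.31, and S100a8, a calcium-binding alarmin, from 2092 ± 713 to 59.4 ± 31.1 TPM (SD, n = 3; limma adjusted p = 0.00222). The list summed to 14720, 7250 and 18010 TPM in the negative libraries, lowest in mouse 2, the negative library closest to OSNs. With 1 library left out 16 to 18 of the 19 passed, and with voom 16. Of 15 mast cell, eosinophil and basophil genes 12 fell, and 7 without the negative library of mouse 1. Mcpt8, a basophil protease, was at 0.671, 0.679 and 1.28 TPM in OSNs and 38.7, 15.0 and 67.3 TPM in negative cells (limma adjusted p = 0.00475).

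The start regions of these granule genes are shown because 18 of the 19 were lower together and their factor PU.1 has a well-known site. The RefSeq promoter table (GRCm38.p6) held 17 of the 19, and 5 of the 17 (29.4%) carried the letters GAGGAAGT on either strand within 250 bases before the start, against 308 of 13000 promoters matched (2.37%). Capitals mark the match, and each stretch of 100 bases runs 5′ to 3′ on the strand of the gene. None of the 5 matches shown overlapped another of the motifs searched. They lie in chr10:79886181-79886280 (plus strand), chr11:87793534-87793633 (plus), chr10:79879526-79879625 (plus), chr3:90668853-90668952 (plus) and chr9:7558179-7558278 (plus), in the order given.
Elane: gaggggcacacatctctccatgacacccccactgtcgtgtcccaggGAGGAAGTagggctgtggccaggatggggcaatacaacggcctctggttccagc
Mpo: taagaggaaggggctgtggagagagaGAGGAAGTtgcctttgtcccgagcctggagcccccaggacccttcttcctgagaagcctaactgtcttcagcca
Prtn3: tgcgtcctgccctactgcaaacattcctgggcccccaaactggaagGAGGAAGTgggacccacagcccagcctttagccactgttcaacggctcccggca
S100a8: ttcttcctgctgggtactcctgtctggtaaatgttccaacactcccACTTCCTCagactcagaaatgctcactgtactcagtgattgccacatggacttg
Mmp8: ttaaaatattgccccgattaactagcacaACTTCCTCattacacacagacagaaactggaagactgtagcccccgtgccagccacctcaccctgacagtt
Elane and Prtn3, protease genes close together on chromosome 10, carry the letters 85 and 95 bases before the start, both in the written orientation. In S100a8 and Mmp8 they stand as the reverse complement. A match is a description of these letters and not of binding.

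The macrophage list held 14 promoters and 1 match, in C1qc, a subunit of the complement protein C1q, shown for contrast since its level went the other way. It lies in chr4:136893056-136893155 (minus strand), 195 bases before the start as the reverse complement.
C1qc: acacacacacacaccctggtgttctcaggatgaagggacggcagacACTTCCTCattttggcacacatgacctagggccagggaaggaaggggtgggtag
For neurons the Ebf letters TCCCNNGGG were searched, since Ebf factors act on many OSN genes. They were found in 3 of 15 mature OSN promoters held and in 862 of the 13000 (6.63%). They also stood in 3 of 9 ensheathing glia promoters (33.3%), 2 of 8 of horizontal basal cells (25.0%) and 3 of 13 of neuronal progenitors (23.1%). The match in Cnga2 lies in chrX:71991736-71991835 (plus), 67 bases before the start, and that in Umodl1 in chr17:30954481-30954580 (plus), 156 bases before it.
Cnga2: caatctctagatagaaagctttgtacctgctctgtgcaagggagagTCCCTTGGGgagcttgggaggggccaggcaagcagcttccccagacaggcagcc
Umodl1: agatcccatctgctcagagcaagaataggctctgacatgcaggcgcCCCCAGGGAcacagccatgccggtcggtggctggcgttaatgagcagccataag
The homeodomain letters TAATTA stood in 97 of 542 odorant receptor promoters (17.9%) and 406 of the 13000 (3.12%), which include the receptors. Sustentacular promoters held them in 4 of 17 cases (23.5%), erythroid in 1 of 6 (16.7%) and bone and cartilage in 2 of 14 (14.3%). The Runx letters TGTGGTT, of a factor of bone, stood in 3 of 14 bone and cartilage promoters (21.4%) and 437 of the 13000 (3.36%). They also stood in 4 of 14 lymphocyte promoters (28.6%) and 3 of 14 of mast cells, eosinophils and basophils (21.4%). Promoters were matched for 76.3% of the genes tested, under the 80% set for such a check, so the check is void for shares over all genes. The shares printed here describe the matched promoters and were not tested.

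Macrophage and microglia genes went the other way from granulocyte genes. Of 20 genes 11 rose and 1 fell, with a median of 2.21. Fcrls, a receptor of microglia, measured 137, 128 and 400.0 TPM in OSNs and 6.22, 2.94 and 4.32 TPM in negative cells. Every OSN value was far above every negative one (log2 difference 5.18, SE 0.462, limma adjusted p = 0.00222), the largest increase of the genes named by rule. Trem2, a lipid receptor of microglia, stood at 54.7, 40.0 and 173.0 TPM against 5.26, 1.22 and 3.52 TPM (log2 difference 4.21, SE 0.608, limma adjusted p = 0.00805). Apoe, a lipid carrier made by macrophages and glia, was at 3136, 2709 and 8201 TPM against 610, 330 and 399 TPM (log2 difference 3.25, SE 0.456, limma adjusted p = 0.00739), and was the most abundant transcript of the OSN library of mouse 3. In all of these genes the OSN library of mouse 3 was the highest.

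The complement subunits C1qa, C1qb and C1qc, the lipid transporter Abcc3, the scavenger receptor Stab1 and the receptors Cx3cr1, Ms4a7 and Cd4 made up the other genes named by rule. C1qa measured 255, 191 and 850 TPM in OSNs and 45.1, 23.2 and 24.6 TPM in negative cells (log2 difference 3.50, limma adjusted p = 0.0116). Csf1r, the growth factor receptor of macrophages, measured 154, 119 and 547 TPM against 48.5, 25.1 and 50.5 TPM (log2 difference 2.42, limma adjusted p = 0.0431). Ctss, a lysosomal protease, rose by 2.30 on the log2 scale. Cd4 was the only one of 18 lymphocyte genes to rise, and microglia-like cells and macrophages can express it.

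Other myeloid genes did not follow. Lyz2, the lysozyme of macrophages and granulocytes, was at 498, 428 and 1521 TPM in OSNs and 1419, 594 and 1756 TPM in negative cells (limma adjusted p = 0.401). Tyrobp, the signalling partner of Trem2, was at 216 ± 169 against 221 ± 70.3 TPM (SD, n = 3; limma adjusted p = 0.767). F13a1, a gene of monocytes, fell from 76.4 ± 50.2 to 9.14 ± 3.65 TPM (SD, n = 3; limma adjusted p = 0.0213). None of 10 genes of MHC class II presentation passed, with or without the mouse term. The summed macrophage list was 3163, 2606 and 9921 TPM in OSN libraries and 2902, 1464 and 3203 TPM in negative libraries. With neutrophil granule markers at 543, 245 and 401 TPM in the same OSN libraries, the part of macrophage RNA in other differences was not tested, and no gene of the macrophage list was at 0 in any OSN library.

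The macrophage calls moved with single libraries, while the list's median stayed between 1.62 and 2.59 with any 1 library left out. Without the OSN library of mouse 3, the highest, 12 of the 20 rose. Without the OSN library of mouse 1, the negative library of mouse 1 or that of mouse 3, 4 did, and without the negative library of mouse 2, 7 did. With voom on recovered counts none did, and the limma-voom adjusted p-values were 0.0677 for Trem2, 0.0521 for C1qa, 0.0577 for C1qb, 0.0546 for C1qc, 0.0762 for Ms4a7, 0.0925 for Cd4, 0.078 for Cx3cr1, 0.0619 for Stab1 and 0.0709 for Abcc3. With 1 library left out, Cd4, Cx3cr1, Stab1 or Abcc3 lost its call in some fits, with limma adjusted p-values up to 0.106. Fcrls and Apoe passed under every alternative run.

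**Figure D3:**
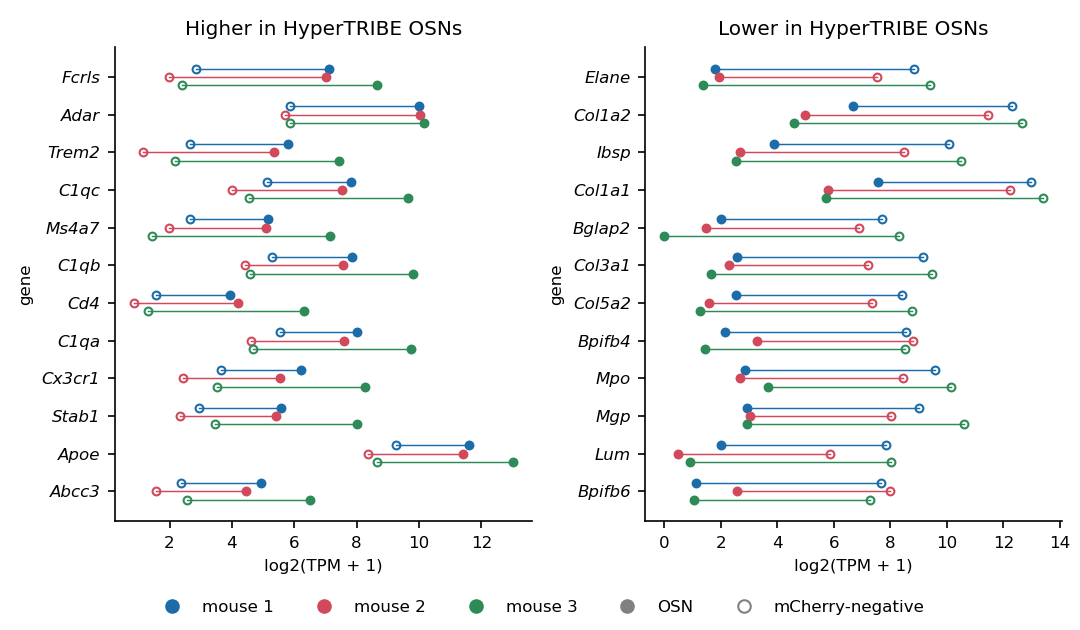
Levels on the log2(TPM + 1) scale of the 12 genes with the largest increase (left) and decrease (right), with filled points for OSNs, open points for mCherry-negative cells and lines joining the fractions of 1 mouse. In the left panel the OSN value of mouse 3 is the highest of the 3 for every gene. The fractions overlap in neither panel, which the rule that chose these genes required.

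The macrophage genes differed between the constructs. Among 16785 genes tested for the interaction of construct and fraction, 2086 passed (12.4%), 1184 with a more positive difference in Mex3a-HyperTRIBE mice (7.05%) and 902 with a more negative one (5.37%). The balance turned with scaling, to 714 and 1053 with median-of-ratios scaling and 573 and 1044 with voom, and to 726 and 756 without the HyperTRIBE OSN library of mouse 1 and 764 and 844 without that of mouse 2. Without the HyperTRIBE negative library of mouse 2, 1195 genes passed. Leaving out the HyperTRIBE OSN library of mouse 3, the highest for macrophage genes, gave 1505, with 871 more positive and 634 more negative. Of the 20 macrophage genes 18 were among the more negative with all libraries. The list's median difference was -0.616 in the Mex3a-HyperTRIBE mice against 2.21 here. How many of the 18 passed with single libraries left out is not reported here. Ctss, for example, was at 795 ± 626 TPM in HyperTRIBE OSNs (SD, n = 3) and 108 ± 29.5 TPM in Mex3a-HyperTRIBE OSNs (SD, n = 6), an interaction of -3.07 (limma adjusted p = 0.00186).

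**Figure D4:**
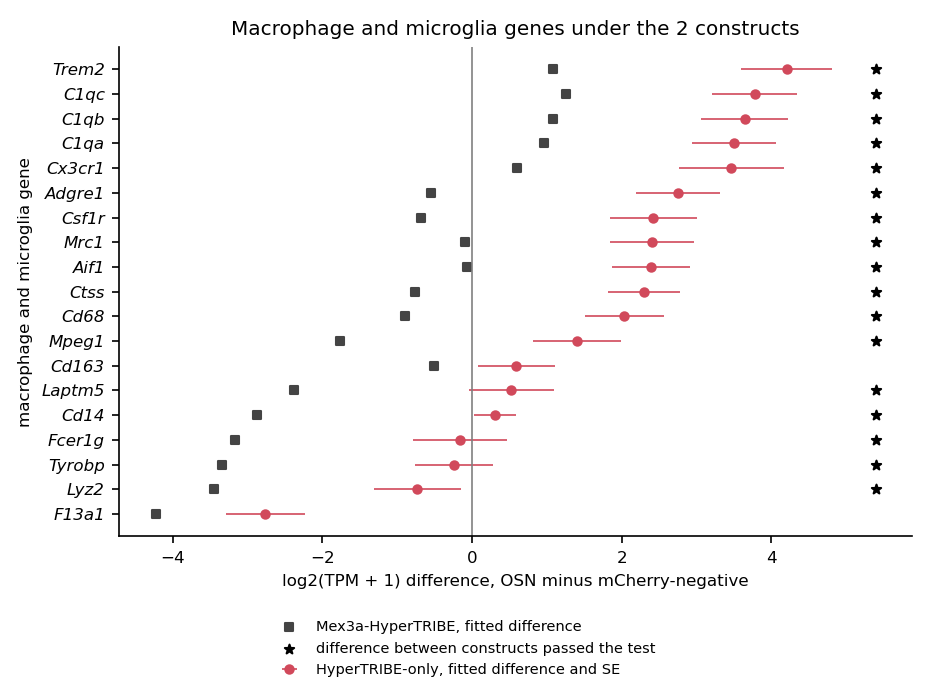
OSN minus mCherry-negative difference, log2(TPM + 1), of macrophage and microglia genes in HyperTRIBE-only mice (circles with standard errors) and in Mex3a-HyperTRIBE mice (squares), with stars for genes whose difference between constructs passed. Trem2 lies at 4.21 in the former and 1.09 in the latter.

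By contrast, none of the 12 named genes lower in OSNs passed the interaction test. Elane had a difference of -7.27 in Mex3a-HyperTRIBE mice and -6.91 here (interaction -0.364, limma adjusted p = 0.685), and Col1a1 -6.33 and -6.51 (interaction 0.185, adjusted p = 0.863). The difference of Adar was 2.96 there and 4.27 here (interaction -1.31, SE 0.423, limma adjusted p = 0.0519). That of Mex3a was 2.08 there and -0.465 here (interaction 2.55, SE 0.666, limma adjusted p = 0.0204), where Mex3a is part of the construct.

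Other genes were also named by rule for the interaction. Phlda3, a p53 target that restrains growth signalling, measured 0.383, 0.582 and 1.22 TPM in HyperTRIBE OSNs and 6.39, 5.51 and 11.2 TPM in the negative cells (log2 difference -2.30, limma adjusted p = 0.00974). In Mex3a-HyperTRIBE OSNs it was at 52.0 ± 29.8 TPM (SD, n = 6), and the interaction was 3.97 (limma adjusted p = 0.00197). It was 1 of 8 p53 target genes of 23 that fell here. That count was 4 without the OSN library of mouse 1, 3 without the negative library of mouse 1 and 5 without the OSN library of mouse 2 or the negative library of mouse 3. Cntfr, a cytokine receptor subunit, fell here too (log2 difference -1.52, limma adjusted p = 0.0329), while Vcan, Fam212b and Pcp4 did not pass. Among the genes more negative in Mex3a-HyperTRIBE mice, the macrophage gene Adgre1 rose here (log2 difference 2.75, limma adjusted p = 0.0275), and Cyth4, Clec4n and Slc11a1 did not pass.

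Genes of early response and of protein synthesis were lower in OSNs. Of 25 immediate early genes 8 fell, and 20 with the mouse term, with a median of -0.889. Egr1, an early transcription factor, measured 193, 83.0 and 80.4 TPM in OSNs and 476, 240 and 386 TPM in negative cells (log2 difference -1.69, limma adjusted p = 0.0412). Klf4, an epithelial factor also counted in this list, fell from 140 ± 14.7 to 34.8 ± 1.94 TPM (SD, n = 3; limma adjusted p = 0.00217). Fos was at 413 ± 137 against 966 ± 322 TPM (SD, n = 3; limma adjusted p = 0.0553, and 0.00344 with the mouse term). Of the 25, 3 passed without the negative library of mouse 1, 13 without that of mouse 2 and 5 without any 1 of the OSN libraries.

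Cytosolic ribosomal protein genes were lower in 80 of 81 cases, with a median of -0.598, and 16 fell. With the mouse term 73 fell. Rplp0, a protein of the ribosomal stalk, measured 381, 370.0 and 519 TPM in OSNs and 913, 697 and 1300 TPM in negative cells (log2 difference -1.16, limma adjusted p = 0.0349). None passed without the OSN library of mouse 1 or 2 or the negative library of mouse 1, 3 without the negative library of mouse 3, and 51 without that of mouse 2, and voom called 9. In contrast, none of 74 genes of oxidative phosphorylation passed with or without the mouse term, and their median of 0.061 lay near that of all genes. Of 44 genes of entry into the endoplasmic reticulum and its vesicle coats, Ostc alone fell, and with the mouse term 1 rose and 6 fell. None fell with voom or without the OSN library of mouse 1, that of mouse 2 or the negative library of mouse 1 or of mouse 3, and 6 did without the negative library of mouse 2 and 3 with median-of-ratios scaling. Of 30 stress response genes Psat1, Phgdh and Nupr1 fell, a share near the 9.11% of all genes tested that were called lower. Of the list 1 gene was called lower without any 1 OSN library, without the negative library of mouse 1, with voom and with quantile normalization. Atf5, a stress factor of OSNs, was at 1253 ± 101 against 981 ± 294 TPM (SD, n = 3; limma adjusted p = 0.29).

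Of 31 interferon-induced genes Adar rose and Isg20 fell, where 2.18% of all genes tested were called higher and 9.11% lower. None of the 31 fell without the OSN library of mouse 1 or of mouse 2, the negative library of mouse 1 or of mouse 3, with quantile normalization or with voom. Of 19 endothelial genes 6 fell, with a median of -1.32, none without the negative library of mouse 1, 13 without that of mouse 2 and 1 to 3 without any 1 of the rest, while quantile normalization called 3 and voom 1. None of 10 erythroid genes passed, and 5 fell with the mouse term. Ensheathing glia genes had a median of -0.061. Of 18 genes Apoe and Npy rose, and 2 fell, among them Cryab. Apoe is shared with macrophages, and the glial S100b (3.10 ± 1.40 against 14.5 ± 7.92 TPM, SD, n = 3; limma adjusted p = 0.0654) did not pass. Of 15 tubulin genes Tubb6 fell, a share below the 9.11% of all genes tested. None of the 15 fell when any 1 library other than the negative library of mouse 2 was left out, with quantile normalization, with voom or with no filter on low values.

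**Figure D5:**
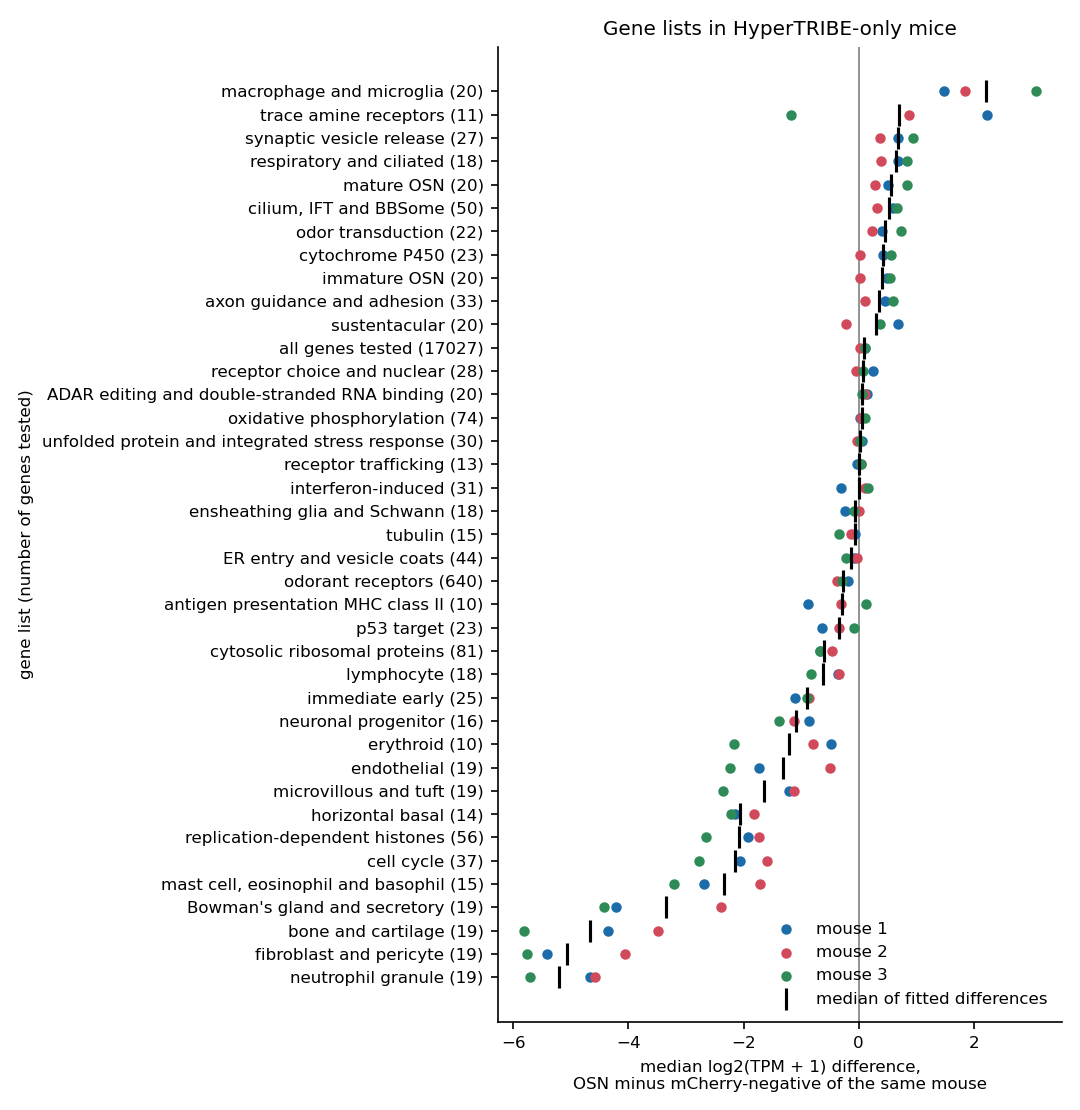
Median log2(TPM + 1) difference, OSN minus mCherry-negative, for each list with at least 10 genes tested, with 1 coloured point per mouse and a bar for the median of the fitted differences. Mouse 2 lies nearer 0 than mouse 3 for the fibroblast (-4.06 and -5.76), mature OSN (0.284 and 0.836) and macrophage lists (1.85 and 3.09).

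The medians of 5 lists were compared between mice. The median of the mature OSN list was 0.517, 0.284 and 0.836 in mice 1, 2 and 3, that of the cilium list 0.592, 0.328 and 0.670, and that of the synaptic list 0.682, 0.372 and 0.947. For lists lower in OSNs the order was the same in size, with -4.35, -3.49 and -5.82 for bone and -2.05, -1.59 and -2.78 for the cell cycle. Mouse 2 had the smallest and mouse 3 the largest difference in each of these 5 lists. That order also held in other lists, such as the fibroblast (-5.41, -4.06 and -5.76), neutrophil granule (-4.67, -4.58 and -5.72) and odor transduction lists (0.406, 0.227 and 0.734). It did not hold in every list. The macrophage median was 1.49, 1.85 and 3.09, the neuronal progenitor median -0.863, -1.13 and -1.38, and that of the trace amine receptors 2.24, 0.879 and -1.17.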

How the data were processed

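RNA-seq of sorted cells was deposited by the authors as TPM per gene. Per the submitters' processing notes, FastQC, cutadapt, STAR and bedtools were used with mm10, whereas the counting tool, annotation and strand setting are not given in the sources used here. Whole read counts were recovered from all 23614 genes (100% of genes, tolerance 0.001 counts). After 27 symbols turned into dates were left out (at most 0.221% of TPM), 17027 genes whose mean over the 6 libraries reached 1 TPM were tested on log2(TPM + 1) with limma 3.58.1 in R 4.3.3, Benjamini-Hochberg adjusted, threshold 0.05. The main model held no mouse term. The labels call the negative cells the control of the same mouse, so a model with the mouse as a block is given beside it. Deviations of same-numbered libraries from the group means correlated at 0.174, 0.300 and 0.475, and those of other numbers at -0.391 to 0.227. The OSN library of mouse 1 correlated more with the negative library of mouse 2 (0.227) than with that of mouse 1 (0.174). The scripts were tested on simulated data. Genes were named as the 12 called with the largest difference in each direction where the higher group's mean reached 5 TPM, the groups did not overlap and all 3 mice moved one way (unnamed loci and small RNAs passed over), and 5 in each direction for the interaction, plus Adar, Mex3a and members of the lists. Alternatives changed the pseudocount, filter, scaling, tool (limma's voom), samples in the fit and each library in turn. The members and the 39 lists were chosen with earlier results of these data known. P-values measure the spread between these libraries, and whether each number is 1 animal is not shown by the files. Some list members are counted but not reported here by name or drawn.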

Additional observations from a re-analysis of the deposited data

Results flagged for a closer look

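The differences between OSNs and negative cells that themselves differed between the constructs are given as log2 values, Mex3a-HyperTRIBE minus HyperTRIBE-only, each tested as an interaction with limma. For macrophage genes the difference was more negative, or less positive, under Mex3a-HyperTRIBE. The genes from Fcrls to Abcc3 below were named for their increase in the HyperTRIBE-only libraries. Those libraries also enter the interaction, so its adjusted p-values are not independent of that choice. The interaction was -2.73 for Fcrls (adjusted p = 0.0262), -3.12 for Trem2 (0.00634), -2.54 for C1qa (0.0346), -2.57 for C1qb (0.0349) and -2.52 for C1qc (0.0314). It was -2.42 for Ms4a7 (adjusted p = 0.0359), -2.65 for Cd4 (0.0157), -2.86 for Cx3cr1 (0.0109), -2.63 for Stab1 (0.0248), -2.25 for Apoe (0.0257) and -3.33 for Abcc3 (0.002). The most negative named by rule besides Abcc3 were Adgre1 at -3.30 (adjusted p = 0.00179), Cyth4 at -3.23 (0.00293), Clec4n at -3.20 (0.00134) and Slc11a1 at -3.19 (0.00252).

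The most positive interactions were 3.97 for Phlda3 (limma adjusted p = 0.00197), 3.08 for Cntfr (0.0212), 2.97 for Vcan (0.0182), 2.86 for Fam212b (0.000294) and 2.59 for Pcp4 (0.00415). Mex3a itself had 2.55 (0.0204). In the Mex3a-HyperTRIBE OSNs, 1 library stood apart from the other 5 for Cntfr, at 4.39 TPM. Chance sets a library apart in this way in about 1 in 20 groups.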

How the results depend on the processing

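With the mouse as a replicate block 4967 genes passed in place of 1923, and 2603 in place of 2086 for the interaction. Limma's voom on recovered counts with median-of-ratios library sizes, chosen after seeing the data, gave 1038; the planned voom with TMM was not run. With 1 library left out the count ran from 660 (without the negative library of mouse 1) to 4183 (without that of mouse 2), and the interaction from 1195 (without the HyperTRIBE negative library of mouse 2) to 2483 (without 1 Mex3a-HyperTRIBE OSN library). Other pseudocounts, filters and scalings gave 1583 to 1882 genes, and all 4 groups in one model 2750. Split by direction, median-of-ratios scaling gave 258 higher and 1620 lower, and quantile normalization 543 and 1232. The interaction with quantile normalization gave 797 more positive and 823 more negative.

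The median of the editing list, 0.062, became -0.013 with median-of-ratios scaling and -0.004 with voom. That of oxidative phosphorylation, 0.061, became -0.017 and -0.002, and ran from -0.012 (without the negative library of mouse 3) to 0.109 with 1 library left out. That of the odorant receptors became 0.078 with quantile normalization, and ran from -0.661 to 0.112 with 1 library left out, with 0.023 without the negative library of mouse 2. The cause was not tested. Mgp (limma-voom adjusted p = 0.0659) and Lum (0.0662) lost their calls with voom. Blocking by mouse changed no call of the 24 genes named by rule. Depth limits genes near 1 TPM, and the log2(TPM + 1) scale understates their differences.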
